A study of Mus musculus with 6 samples.

Results

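The OAS family of antiviral genes was followed in the 4T-1 line, BALB/c mouse mammary carcinoma cells that were either wild type (n = 3 libraries) or Lyplal1 knockout (n = 3 libraries). Both groups carried the label of no treatment, and no agent or allele other than the Lyplal1 knockout was named. The sample descriptions mark the wild-type libraries NC and the knockout libraries sg2, with the same label for all of the latter. The members were taken from a list of 8 genes, Oas1a, Oas1b, Oas1c, Oas1g, Oas2, Oas3, Oasl1 and Oasl2, by their Ensembl identifiers, out of 55487 genes in the deposited count table. All 8 were found. The labels do not say whether the knockout line is 1 clone or a pool, nor whether the libraries of a group came from separate cultures, so p-values measure only the spread between these libraries, which may be technical. The series title links LYPLAL1, an acyl-protein thioesterase relative, to the cytosolic DNA sensor cGAS, and the comparison asks which transcripts differ once the gene is knocked out.

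Oligoadenylate synthetases bind double-stranded RNA and then join ATP into short chains with 2′,5′ linkages, called 2-5A. These chains are a signal that leads to the breakdown of RNA of virus and host, which slows viral growth and protein synthesis. The genes are classical targets of interferon: the transcription factor complex ISGF3, which holds STAT2 and IRF9, binds a DNA motif named the interferon-stimulated response element (ISRE) near their start sites. Mice have a large group of Oas1 genes where humans have a single one. Oas2 and Oas3 carry more than one copy of the synthetase unit. The Oasl genes encode synthetase-like proteins with ubiquitin-like tails, of which Oasl1 makes no 2-5A and is known as a brake on translation of the interferon regulator IRF7.

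All 8 members lie on chromosome 5 of GRCm38, in a pair of groups. Oasl2 (ENSMUSG00000029561, 114896936 to 114912234) and Oasl1 (ENSMUSG00000041827, 114923240 to 114937915) are neighbours on the plus strand. The other group runs from Oas2 (ENSMUSG00000032690, 120730333 to 120749853) through Oas3 (ENSMUSG00000032661, 120753098 to 120777661), Oas1c (ENSMUSG00000001166, 120800194 to 120812514), Oas1b (ENSMUSG00000029605, 120812635 to 120824163) and Oas1g (ENSMUSG00000066861, 120876142 to 120887613) to Oas1a (ENSMUSG00000052776, 120896256 to 120907521). In this group only Oas1b among the members is on the plus strand. GENCODE M21 classes Oas1b as a polymorphic pseudogene and the other 7 members as protein coding.

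The start sites were searched for the ISRE core, GAAA followed by any pair of bases and then GAAA, on both strands. All members were higher in knockout, though by very different amounts. RefSeq promoters on GRCm38.p6, 250 bases before to 50 after each start, were found for 6 of the 8 members, all but Oas1b and Oas2. The core was present in 4 of these 6 (Oas1a, Oas1c, Oas1g and Oas3), beside 1131 of all 32851 promoters, or 3.44%. A promoter with overlapping copies counted once. The matches of Oas1a, Oas1g and Oas1c lie in the same run of 19 bases, so the 4 are not independent. The GAS core TTCNNNGAA, a motif of STAT factors, was present in 1 of the 6, Oas1a, beside 8.3% of all promoters. Oasl1 and Oasl2 had neither motif in this window. The stretches that carry the ISRE core are shown 5′ to 3′ on the strand of each gene, ending at the start site for Oas1a, Oas1g and Oas1b, with the core in capitals. They are, in order, chr5:120907526-120907585 (minus strand), chr5:120887614-120887673 (minus strand), chr5:120812515-120812634 (plus strand) and chr5:120777700-120777759 (minus strand).
Oas1a: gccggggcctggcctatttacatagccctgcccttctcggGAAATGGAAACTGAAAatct
Oas1g: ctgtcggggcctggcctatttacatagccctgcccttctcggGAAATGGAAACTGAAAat
Oas1b: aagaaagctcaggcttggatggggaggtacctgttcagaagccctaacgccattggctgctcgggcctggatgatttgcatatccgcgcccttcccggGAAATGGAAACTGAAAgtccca
Oas3: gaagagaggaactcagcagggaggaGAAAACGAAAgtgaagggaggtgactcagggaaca

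Oas1a, Oas1g and Oas1b share the same run of 19 bases, cggGAAATGGAAACTGAAA, in which a pair of ISRE cores overlap. It ends 4 bases before the start of Oas1a, 2 before that of Oas1g and 6 before that of Oas1b. On either strand this run occurs in 3 of the 32851 promoters, those of Oas1a, Oas1g and Oas1c. The stretch shown for Oas1b is the whole gap of 120 bases between Oas1b and the divergent gene Oas1c, so the run lies next to the start of Oas1b, while its ISRE cores begin at positions -114 and -108 from the start of Oas1c, on the strand opposite to that gene. A match of letters is a description and does not show that a factor binds.

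Some members are so alike that reads may not tell them apart. The coding sequences of Oas1a and Oas1g were identical at 96.7% of 1101 aligned bases, and those of Oas1b and Oas1c at 76.7% of 752. Of all windows of 100 bases in the Oas1a transcript 40.9% also occur in Oas1g, and of those in the Oas1g transcript 38.2% occur in Oas1a. Oas1b, Oas2, Oas3, Oasl1 and Oasl2 shared no such window with another gene, and Oas1c shared 4.47%, all with the antisense gene Gm43069. With windows of 50 bases more was shared, 57.6% for Oas1a and 54.7% for Oas1g. At that length Oas1c shared 16.3%, in part with Oas1d, Oas1e and Oas1f. Oas1b shared 3.42%, in part with Oas1a and Oas1g, Oas3 shared 0.792%, and Oas2, Oasl1 and Oasl2 shared none. The longest run that Oas1a and Oas1g have in common covers 231 bases, coding positions 222 to 452 in both, and a read from inside it fits either gene.
Oas1a and Oas1g: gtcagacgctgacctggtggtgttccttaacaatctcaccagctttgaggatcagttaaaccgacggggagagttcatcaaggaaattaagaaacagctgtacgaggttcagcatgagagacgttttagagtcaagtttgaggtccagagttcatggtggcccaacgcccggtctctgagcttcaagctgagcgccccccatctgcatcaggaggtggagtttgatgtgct
How such reads were counted is not given in the sources used here, so the separate values of Oas1a and Oas1g are uncertain. The reference genome is of the C57BL/6J strain while 4T-1 cells are BALB/c, and the part of strain differences in these counts was not tested. Gm43069 had 0 counts in wild type and 0, 2 and 1 counts in the knockout libraries.

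Total counts per library ran from 16731209 to 17108975. Of 13022 genes with enough counts to test, 10711 (82.3%) were called different between the groups, so being called says little here and the size of a change says more. Lyplal1 RNA itself was still present in the knockout libraries, at 54, 48 and 58 counts against 76, 73 and 68 in wild type, and the difference was not called (edgeR adjusted p = 0.0886). Mammary epithelial markers summed to 7265 to 7432 TPM (a level scaled for gene length and library size) in wild type and 3883 to 3907 TPM in knockout. Of the 8 tested genes of that list 6 were called lower and 1 higher, beside 40.9% and 41.3% of all tested genes. Leukocyte markers summed to 27.4 to 28.7 TPM in wild type and 1315 to 1435 TPM in knockout, nearly all of it Cd68, at a mean of 27.5 and 1356 TPM. The defining leukocyte marker Ptprc had 1 to 7 counts per library, and Ncr1 had none. Most leukocyte, fibroblast and endothelial markers were highest in knockout replicate 3. Examples are Lyz2 at 263 counts against 28 and 45 and the endothelial marker Cdh5 at 34 against 8 and 10. The fibroblast markers Col1a1 (37 against 15 and 14), Col1a2 (33 against 6 and 1) and Dcn (16 against 4 and 1) were highest there too. Only the most abundant fibroblast marker, Pdgfra, was lowest there in its list, at 2559 counts against 2849 and 2722. The part of these markers in the results was not tested. Fibroblast markers summed to 29.4 to 30.7 TPM in wild type and 60.7 to 66.9 TPM in knockout. Nearly all of it was Pdgfra, called higher, at a mean of 27.45 and 62.48 TPM. The other tested fibroblast marker, Col1a1, was called lower in knockout, at a mean of 2.375 and 0.7705 TPM. Endothelial markers summed to 0.115 to 0.172 TPM in wild type and 0.792 to 4.24 TPM in knockout. Without knockout replicate 3 the log2 fold change of no member moved by more than 0.04.

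Every member was higher in knockout cells, and 7 of the 8 by at least 32-fold. All 8 were called higher (quasi-likelihood F test of edgeR, p adjusted over all tested genes, from 9.41e-36 to 4.12e-11), where 41.3% of tested genes were called in that direction. In all 8 the groups did not overlap, where 41.7% of tested genes had every knockout library above every wild-type library. Oas1a, Oas1b, Oas1c, Oas3 and Oasl2 had enough counts in all 3 wild-type libraries to be tested on those alone. Oas1g, Oas2 and Oasl1 entered the test only through the knockout libraries, so they had to differ and their calls add nothing. Of the other 5 members 4 had a fitted log2 fold change of at least 5 (32-fold), a size reached by 169 of the 13022 tested genes (1.3%), and the median over these 5 was 5.34, beside 0.00 over all tested genes. Fold changes here are fitted on counts with TMM scaling of the libraries, while levels are TPM, which have no such scaling, and for the members other than Oas2 the ratio of mean TPM was lower than the fitted fold (130 for Oas1a beside 149, and 799 for Oasl2 beside 918). In bulk RNA, more RNA per cell and more cells with the RNA cannot be told apart.

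**Figure D1:**
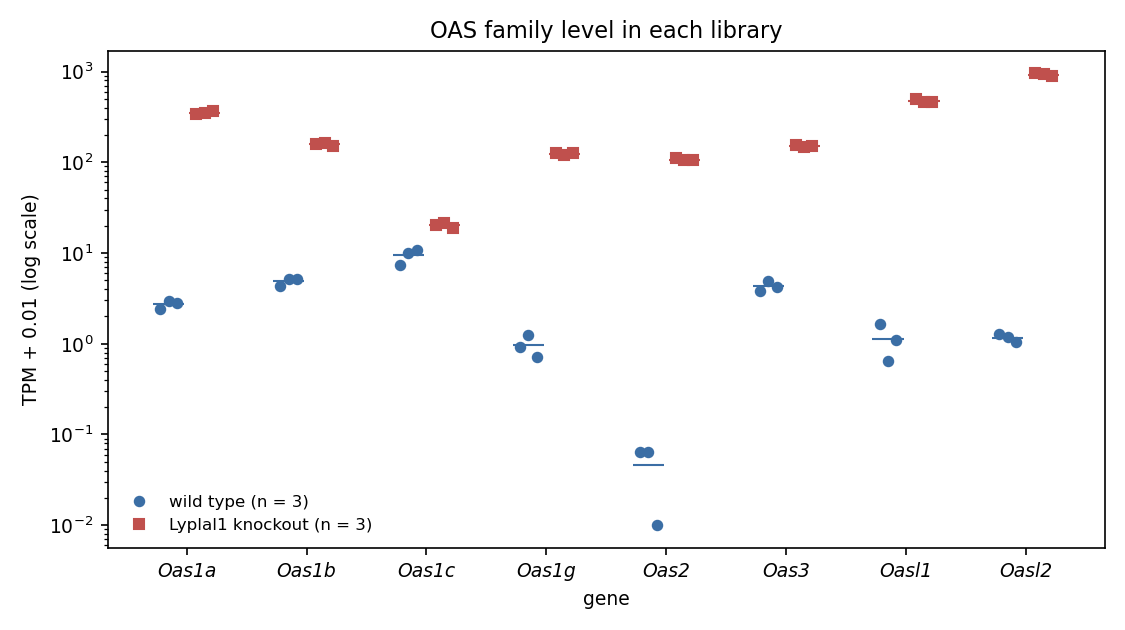
TPM of each OAS family gene in each library, with 0.01 added, on a log axis; points are single libraries, bars the mean of 3. All 8 OAS genes lie higher in every knockout library than in every wild-type library.

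Oas1a and Oas1g, which encode active synthetases of the Oas1 type, rose by similar fitted factors. Oas1a stood at 2.40, 2.92 and 2.78 TPM in wild-type replicates 1 to 3 and at 344, 345 and 364 TPM in knockout replicates 1 to 3. Oas1g stood at 0.917, 1.23 and 0.712 TPM in wild type and at 127, 120 and 125 TPM in knockout. The knockout libraries of each gene lay close together and far above wild type. Oas1a rose 149-fold (log2 fold change 7.22) and Oas1g 148-fold (7.21), from 64 and 28 wild-type counts in total. The ratio of Oas1a to Oas1g in TPM was 2.97 ± 0.818 in wild type and 2.83 ± 0.118 in knockout (SD, n = 3 each), and no difference was detected (exact permutation test on log2 ratios, two-sided p = 1, with 0.1 the smallest p that 3 against 3 allows). The part of shared reads in this likeness was not tested.

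Oas1b and Oas1c start 120 bases apart, face away from each other, and behaved very differently. Oas1b, the gene known from resistance of mice to flaviviruses, stood at 4.31, 5.17 and 5.14 TPM in wild type and at 160, 162 and 152 TPM in knockout. Oas1c, another Oas1 paralogue, stood at 7.43, 9.96 and 10.8 TPM in wild type and at 20.6, 21.4 and 19.0 TPM in knockout. Oas1c was thus the higher of the pair in every wild-type library and Oas1b in every knockout library. Oas1b rose 37.3-fold (log2 fold change 5.22) and Oas1c 2.5-fold (1.32), the smallest rise of the 8. The ratio of Oas1b to Oas1c went from 0.525 ± 0.052 to 7.77 ± 0.205 (SD, n = 3 each), a shift of 3.89 on the log2 scale (exact permutation p = 0.1, the smallest possible, and 0.15 adjusted over the 3 ratios tested). The map of genes around Oas1b shows both by colour.

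**Figure D2:**
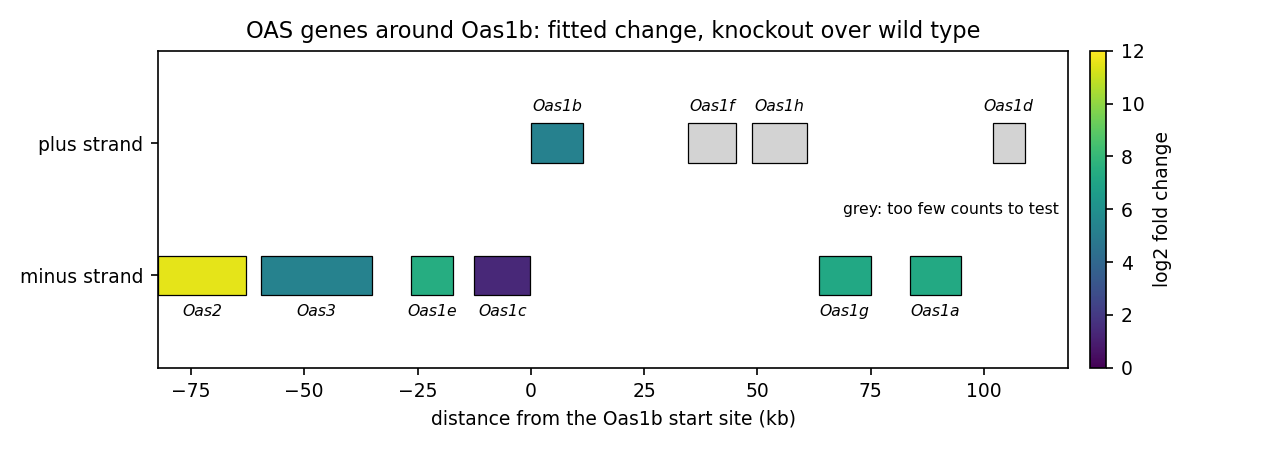
OAS genes of the larger group on chromosome 5, drawn to scale by distance from the Oas1b start site and by strand, coloured by fitted log2 fold change. Oas1c (1.32) is the darkest gene, beside Oas1b (5.22), and grey genes had too few counts to test; the colours of Oas2 and Oas1e rest on 2 and 0 wild-type counts.

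Oas2 and Oas3, the synthetases with repeated units, reached similar levels in knockout from very different wild-type levels. Oas3, whose product makes 2-5A well at low levels of double-stranded RNA, stood at 3.85, 4.91 and 4.24 TPM in wild type and at 156, 149 and 152 TPM in knockout. Oas2 was almost silent in wild type, with 1, 1 and 0 counts, and had 2109, 2042 and 2050 counts in knockout, or 110, 107 and 105 TPM. Oas3 rose 40.6-fold (log2 fold change 5.34). The pooled counts of Oas2, scaled by library size, gave a ratio of 3466 (95% exact interval 959 to 28620, counting error only), and its fitted log2 fold change of 11.50 depends on the small number added to low counts. The ratio of Oas3 to Oas2 in TPM was 71.8 and 91.3 in the wild-type libraries with an Oas2 count and 1.41, 1.40 and 1.45 in knockout.

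The synthetase-like genes became the most abundant members. Oasl2, whose product keeps synthetase activity in mice, stood at 1.27, 1.16 and 1.05 TPM in wild type and at 955, 942 and 884 TPM in knockout. Oasl1 stood at 1.65, 0.643 and 1.10 TPM in wild type and at 494, 467 and 456 TPM in knockout. The wild-type values of Oasl1 come from 18, 7 and 12 counts and are the most uneven after those of Oas2. Oasl2 rose 918-fold (log2 fold change 9.84, rank 22 of 13022 tested genes) and Oasl1 478-fold (8.90, rank 40). The ratio of Oasl2 to Oasl1 was 1.18 ± 0.555 in wild type and 1.96 ± 0.046 in knockout (SD, n = 3 each), a shift of 0.83 on the log2 scale (exact permutation p = 0.1, adjusted 0.15). The highest wild-type ratio, 1.81, came close to the lowest knockout ratio, 1.93.

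**Figure D3:**
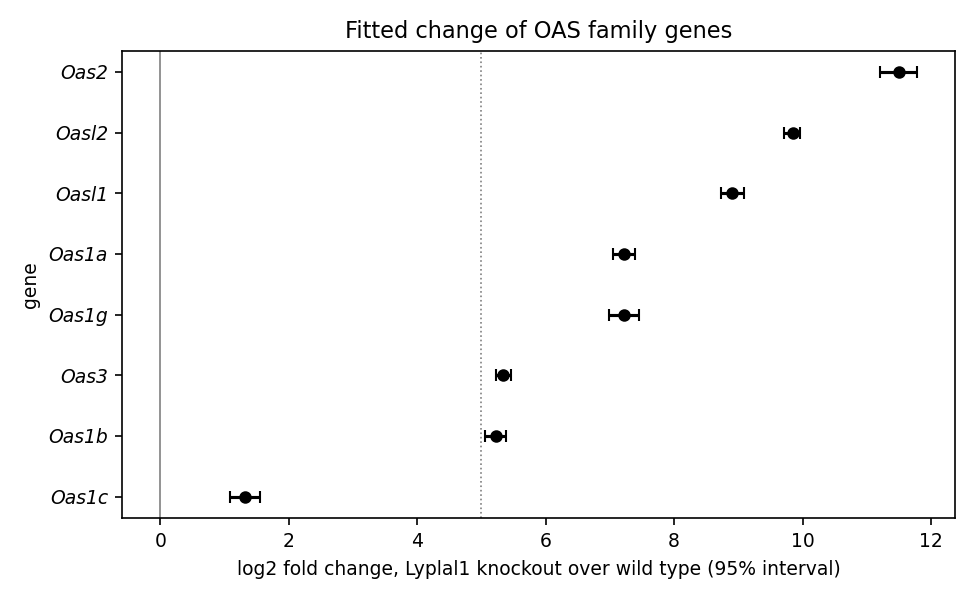
Fitted log2 fold change, knockout over wild type, with nominal 95% intervals, for the 8 OAS genes. The dotted line marks 5. The intervals are too narrow for large changes from few wild-type counts. For Oas2 the interval is 11.21 to 11.78, but leaving out wild-type replicate 3 gave 10.99. For Oasl1 it is 8.72 to 9.08, but leaving out wild-type replicate 2 gave 8.62. The members spread from 1.32 for Oas1c to 11.50 for Oas2; the Oas2 value rests on 2 wild-type counts.

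The order of the members by level per length differed between the groups. In wild type Oas1c was highest at 9.39 ± 1.75 TPM (SD, n = 3), followed by Oas1b at 4.87 ± 0.488 and Oas3 at 4.33 ± 0.539, then Oas1a at 2.7 ± 0.268, Oasl2 at 1.16 ± 0.113, Oasl1 at 1.13 ± 0.502 and Oas1g at 0.952 ± 0.26, with Oas2 last. Oas1b and Oas3 overlapped, as did Oasl2, Oasl1 and Oas1g with each other, so their order is not fixed. In knockout Oasl2 was highest at 927 ± 38 TPM, followed by Oasl1 at 472 ± 19.3, Oas1a at 351 ± 11.4, Oas1b at 158 ± 5.32 and Oas3 at 152 ± 3.3, then Oas1g at 124 ± 4.05, Oas2 at 107 ± 2.75 and Oas1c last at 20.3 ± 1.21. There only Oas1b and Oas3 overlapped. In both groups the places of Oas1a and Oas1g also depend on how their shared reads were counted, which is not given.

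Summed over the 8 genes, the level was 21.9, 26.1 and 25.8 TPM in wild type and 2366, 2314 and 2257 TPM in knockout. In counts this was 306, 362 and 347 against 44191, 43207 and 42585, or 0.26% of all counts in the knockout libraries. Oasl2 made up 4.78% ± 0.919 of the summed TPM in wild type and 40.1% ± 0.813 in knockout (SD, n = 3 each), and Oasl1 4.74% ± 2.56 and 20.4% ± 0.38. Oas1c went the other way, from 38.0% ± 3.92 to 0.879% ± 0.042, although its own level rose. Oas1b fell from 19.8% to 6.83% of the sum and Oas3 from 17.6% to 6.59%. Oas1a took 11.0% and 15.2%, shares that depend on how reads shared with Oas1g were counted.

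**Figure D4:**
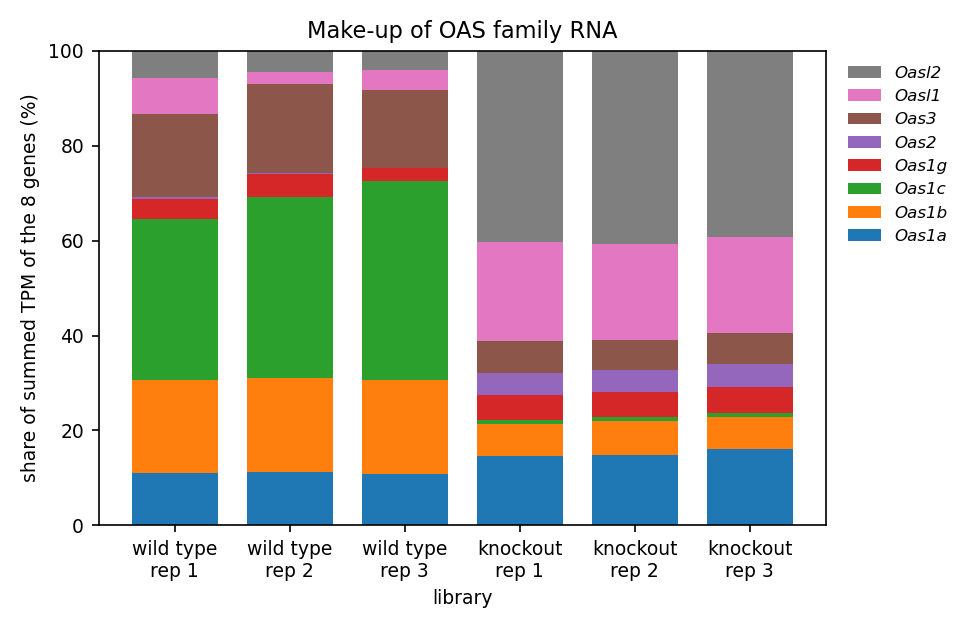
Share of the summed TPM of the 8 OAS genes taken by each gene in each of the 6 libraries. Oas1c, Oas1b and Oas3 fill most of the wild-type bars, and Oasl2 (40.1% on average) and Oasl1 (20.4%) most of the knockout bars.

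The remaining 4 genes of the Oas1 group were at or near 0 in wild type. Oas1f had no count in any library, Oas1h had 2 counts and Oas1d 6 counts over all 6 libraries. Oas1e had no wild-type count and 17, 22 and 21 counts in knockout, at least 22.4-fold higher against a floor of 3 counts over the group. Oas1e shares 11.3% of its windows of 50 bases with other genes, mainly Oas1c.

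Genes that act on 2-5A or downstream of it had smaller fitted changes than the members. Of 4 such genes 2 rose and 2 fell, where 40.9% of tested genes were called lower in knockout. 2-5A itself was not measured. Abce1, an ATPase that recycles ribosomes, had a fitted rise of 1.36-fold, and its mean TPM of 284 and 336 differed 1.18-fold. Pde12, a mitochondrial phosphodiesterase that degrades 2-5A, was 1.2-fold higher in wild type in the fit and 1.38-fold by its mean TPM of 21.4 and 15.5. Akap7, whose product holds a 2-5A phosphodiesterase unit, was 1.47-fold higher in wild type in the fit. Enpp1, an ectonucleotidase that can cut 2-5A, was 1.47-fold higher in knockout at low counts, 48, 41 and 35 against 54, 55 and 54, and was not called with DESeq2 at a log2 fold change of 0.56, beside 0.55 with edgeR (DESeq2 adjusted p = 0.0928), nor on log2(TPM + 1) at 0.18 (limma adjusted p = 0.13).

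All 8 genes in the list of other double-stranded RNA sensors and factors linked to them were called higher, where 41.3% of all tested genes were. Zbp1, a sensor of Z-form nucleic acid, entered the test only through the knockout libraries, so its call was fixed. It had 8, 5 and 8 counts in wild type and 2837, 2866 and 2863 in knockout, a fitted fold of 447. Dhx58, the LGP2 helicase, rose 52.8-fold, Ifih1, the MDA5 sensor, had a log2 fold change of 4.24 and Ddx58, RIG-I, one of 3.52. The endosomal receptor gene Tlr3 (2.28), the kinase gene Eif2ak2 (PKR, 1.62) and the RNA editor gene Adar (1.55) rose less on that scale. Mavs, the adaptor of the RIG-I family, had the smallest value at 0.25, and was not called on log2(TPM + 1), at 0.04 (limma adjusted p = 0.348).

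**Figure D5:**
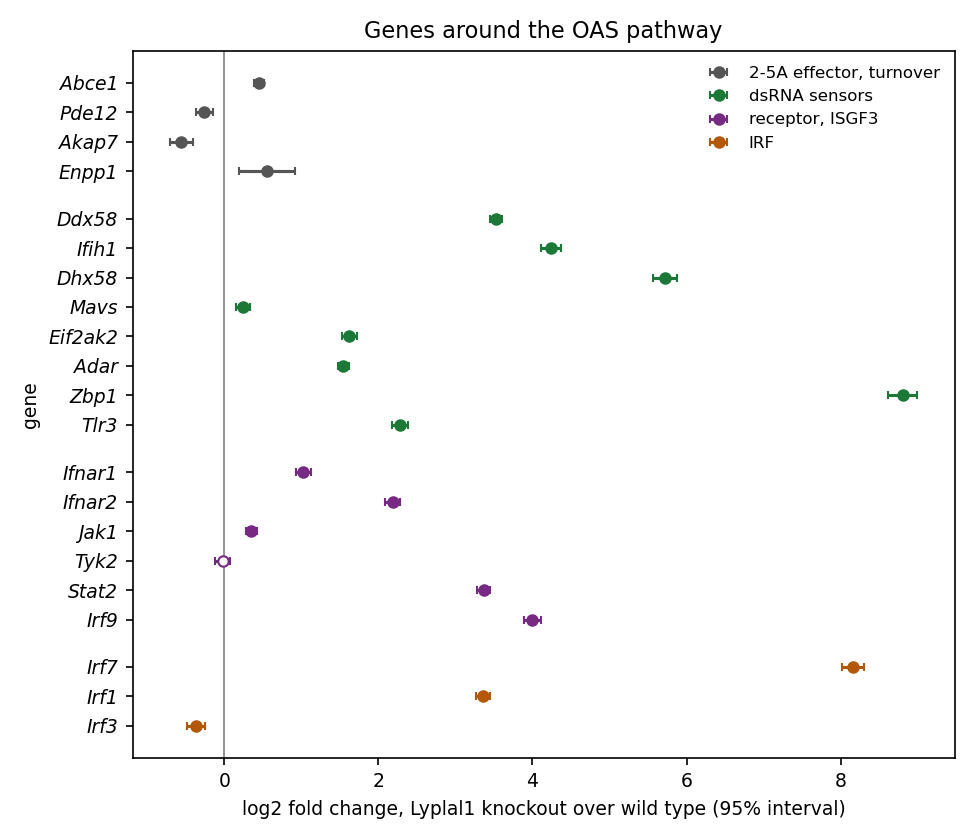
Fitted log2 fold change with nominal 95% intervals for genes beside the OAS family, coloured by list. The open circle (Tyk2) was not called. The intervals are too narrow for large changes from few wild-type counts, such as Zbp1 with 21. The points of the 2-5A genes lie within 1 of 0, while Zbp1 (8.81) and Irf7 (8.17) reach values like those of Oasl1.

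Genes that carry the interferon signal to the OAS promoters were mostly higher. Of 6 receptor and ISGF3 genes 5 were called higher, where 41.3% of all tested genes were. The remaining gene, Tyk2, was not called (log2 fold change -0.02, edgeR adjusted p = 0.654). Irf9 and Stat2 had log2 fold changes of 4.00 and 3.37. The receptor subunit genes Ifnar2 and Ifnar1 rose 4.55-fold and 2.04-fold, and the kinase gene Jak1 had a log2 fold change of 0.35. Irf7, whose translation Oasl1 protein is known to restrain, rose 287-fold in the fit and 249-fold by mean TPM, to 661. Irf1 rose (log2 fold change 3.35) and Irf3, the factor activated by STING, fell (-0.37). Of 20 interferon genes listed none had enough counts to be tested, 13 had no count in any library, 2 had a count in wild type and 7 in knockout. Ifnb1 was not counted in wild type and had 16, 16 and 6 counts in knockout, at least 14.2-fold higher against the same floor, while Ifnl2 had 1, 3 and 6.

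Tested genes next to the Oasl pair did not show changes of that size, and no neighbour of the larger group had enough counts to be tested. Of 10 protein-coding genes within 100 kb of a member 4 had enough counts to be tested. Of these 3 were called higher and 1 lower, where 41.3% and 40.9% of all tested genes were. The closest of these, 2210016L21Rik, lies 4243 bases from Oasl1 and had 39.8, 44.2 and 41.9 TPM in wild type and 62.8, 58.4 and 62.0 TPM in knockout, a rise of 1.68-fold in the fit and 1.46-fold by mean TPM. Ankrd13a had a log2 fold change of 0.37. Sppl3 had one of 0.20 that was gone on other scalings (0.07 with upper-quartile factors, edgeR adjusted p = 0.122, and -0.0047 on log2(TPM + 1), limma adjusted p = 0.906). The level of 1500011B03Rik fell from a mean of 6.79 to 2.95 TPM. Dtx1 beside Oas2 and Rph3a beside Oas1a had at most 7 counts in any library.

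The genes with the most similar profile were found by the root-mean-square difference of log2 CPM (counts scaled to library size, with a prior count of 2, each gene centred on its mean) over the 6 libraries, a measure set mainly by the size of the change between groups. For the near-silent Oas2 that size rests on the prior count, so no gene is named as its nearest, and the values of Oas1g, Oasl1 and Oasl2 also move with it. Among OAS genes Oas1a and Oas1g were nearest to each other (0.193), as were Oas1b and Oas3 (0.108). Among the genes reported outside the family Ddx60 (0.083) and Isg15 (0.094) were nearest to Oas1a, Slfn2 (0.167) to Oas1g, Bst2 (0.116) and Cd274 (0.122) to Oas3, and Trim30a (0.197) to Oasl2. Ifi47 (0.225) and Zbp1 (0.244) were nearest to Oasl1, and Tmem121 (0.108) and Sspo (0.111) to Oas1b. Oas1c alone had no OAS gene within 1 (the nearest, Oas1e, was at 1.12), and the genes nearest to it were Nat9 (0.072), the ribosomal protein gene Rpl36 (0.089) and Cpped1 (0.1). The profile of Oas1e, which had no wild-type count, also rests on the prior count.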

How the data were processed

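The 6 libraries were made from Trizol-extracted RNA as DNBseq quantification libraries, per the labels' protocols. STAR 2.7.8a, featureCounts 2.0.1 and the build GRCm38 are listed in the submitters' processing notes, and strand and the treatment of shared reads were not given in the sources used here. Per gene, the authors deposited whole-number counts and TPM. The TPM matched counts per union exon length of GENCODE M21 within 1% for 98.6% of 9624 genes tried. Symbols come from M21 (55227 of 55487 identifiers matched).

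Genes were filtered with filterByExpr (about 10 counts in 3 libraries) and tested with edgeR 4.0.16 (TMM factors, quasi-likelihood F test, two-sided, Benjamini-Hochberg over 13022 genes, threshold 0.05). The intervals drawn for fitted changes come from the change and its F, which measures distance from no change. For large changes from few wild-type counts they are narrower than counting error, so no standard errors are printed. TPM were used for levels, and tested only in limma 3.58.1 alternatives and in the ratios of members. DESeq2 1.42.0, R 4.3.3, Python 3.11.15, SciPy 1.17.1 and Biopython 1.88 were also used. The test was tried on simulated counts. Ratios of members, chosen after the levels were seen, were tested over libraries by exact permutation. Alternatives were DESeq2, upper-quartile and RLE factors, no filter, 1 CPM in 3 libraries, the replicate number as a block, TPM and leaving out each library. The text names all members, all genes of lists of 2-5A genes, sensors, interferons, receptors and factors where values add something, neighbours, and the nearest profiles by rank. Some genes are not reported here and were left out of the lists, neighbours and nearest profiles. Members and lists were chosen with earlier results of these data known.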

Additional observations from a re-analysis of the deposited data

How the results depend on the processing

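All 8 members stayed called higher under each of the 14 alternatives, and none of their 112 values changed direction or call. The lowest and highest log2 fold changes over these were 1.05 and 1.43 for Oas1c, 4.76 and 5.26 for Oas1b, 4.85 and 5.43 for Oas3, 6.57 and 7.27 for Oas1a, 6.01 and 7.43 for Oas1g, 7.82 and 9.27 for Oasl1, 8.75 and 9.91 for Oasl2, and 6.71 and 11.83 for Oas2. The low ends for the nearly silent genes come from log2(TPM + 1), where the pseudocount lifts the wild-type value. Of 308 values of the 22 tested pathway genes 8 changed call, all for Enpp1, Mavs or Tyk2. Of 56 values of the 4 tested neighbours 3 did, all for Sppl3, whose log2 fold change was 0.07 with upper-quartile factors, -0.00471 on log2(TPM + 1) and -0.0048 on log2(TPM + 0.1). Tyk2 was called lower with upper-quartile factors (log2 fold change -0.16, adjusted p = 0.00275) and on log2(TPM + 1) (-0.22) and log2(TPM + 0.1) (-0.23). Upper-quartile factors and log2(TPM + 1) moved the median change of all tested genes to -0.13 and -0.19, and TPM lowered the share of calls that were higher from 50.2% to 38.4% (5382 higher and 5329 lower against 4115 and 6591). With the replicate number as a block 8 members and 21 pathway genes were called, as without it. Same-numbered libraries did not deviate together (correlations -0.00742, 0.0416 and 0.0132), so the numbers are not taken as pairs. Wild-type counts under about 20 for Oas1g, Oas2 and Oasl1 limit the precision of their folds.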
